A study of Mus musculus with 2 samples.

Results

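Foxa1, Onecut2, Prox1 and Gata3 encode transcription factors, and Spp1 encodes a secreted matrix protein. These 5 genes were compared in level between control mouse embryos and mutants in which Gata4 and Gata6 were deleted by a Pdx1-driven Cre. They were found by their symbols in the authors' deposited table and are 5 of its 250 genes. The members were chosen by these same FPKM values, as genes the table lists as changed, so the values are a description and carry no test. Both libraries came from embryos at stage e12.5. The control library, labelled only as control, was made from RNA of 6 pooled pancreata, and the mutant library, labelled Pdxcre;Gata4fl/fl;Gata6fl/fl, from 12. The title of the series adds the allele Tom to the mutant genotype. The labels do not say whether the controls carried Pdxcre, Tom or any floxed allele. Pdxcre is a Cre recombinase driven from Pdx1 sequences, so deletion is directed to the epithelium of the pancreas and the adjoining foregut, while the libraries sum over all cells of the dissected organ. Fewer cells of a type and less RNA per cell therefore cannot be told apart in any value below.

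Foxa1 is a forkhead factor that can bind closed chromatin and is made throughout the gut endoderm, and in the mouse it acts together with its relative Foxa2 in pancreas formation. Onecut2 is a cut homeodomain factor of endoderm and of neurons, related to Onecut1, a regulator of the duct and endocrine lineages. Prox1 is a prospero homeodomain factor of the early pancreas and liver buds and of lymphatic endothelium. Gata3 belongs to the zinc finger family of Gata4 and Gata6, but is known from T cells, sympathetic neurons and the nephric duct. Spp1 encodes osteopontin, a secreted phosphoprotein that binds integrins, marks pancreatic ducts in the adult and is also made by macrophages.

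The promoters of the members are shown because the deleted factors bind the letters GATA in DNA. RefSeq start sites on build GRCm38.p6 were available for 4 of the 5 genes, in 6 windows of 300 bases, from 250 bases before the start base onward. Each window had 1 exact match in mm9, the build of the table, and mm9 positions are given. For each gene the window whose start base lies nearest to the edge of the table's locus is printed, 5′ to 3′ along the gene, with capitals for any GATA, forkhead or Onecut word on either strand. The GATA word was AGATAA, with T also allowed as its first letter and G as its last. The forkhead word was TGTTTAC, with A also allowed as its second letter and G as its next to last. The Onecut word was ATCAAT, with G also allowed right after the C.
Foxa1 (chr12:58647049-58647348, minus strand): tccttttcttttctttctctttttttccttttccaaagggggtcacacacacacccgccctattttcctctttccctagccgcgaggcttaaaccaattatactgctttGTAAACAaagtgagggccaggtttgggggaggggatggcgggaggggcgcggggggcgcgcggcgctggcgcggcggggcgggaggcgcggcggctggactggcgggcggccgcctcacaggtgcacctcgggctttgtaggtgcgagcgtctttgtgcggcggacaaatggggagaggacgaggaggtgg
Gata3 (chr2:9800178-9800477, minus strand): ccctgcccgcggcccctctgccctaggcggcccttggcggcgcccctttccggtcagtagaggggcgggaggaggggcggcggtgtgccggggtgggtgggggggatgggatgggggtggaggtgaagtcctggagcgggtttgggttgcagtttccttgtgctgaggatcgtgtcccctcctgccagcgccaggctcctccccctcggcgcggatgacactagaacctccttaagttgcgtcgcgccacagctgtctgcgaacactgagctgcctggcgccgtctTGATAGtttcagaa
Prox1 (chr1:191994657-191994956, minus strand): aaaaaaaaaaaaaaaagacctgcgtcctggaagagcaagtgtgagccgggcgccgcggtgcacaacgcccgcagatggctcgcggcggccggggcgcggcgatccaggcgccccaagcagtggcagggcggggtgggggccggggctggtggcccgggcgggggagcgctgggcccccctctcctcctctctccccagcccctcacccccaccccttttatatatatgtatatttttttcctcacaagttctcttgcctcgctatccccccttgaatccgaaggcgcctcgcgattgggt
Spp1 (chr5:104863880-104864179, plus strand): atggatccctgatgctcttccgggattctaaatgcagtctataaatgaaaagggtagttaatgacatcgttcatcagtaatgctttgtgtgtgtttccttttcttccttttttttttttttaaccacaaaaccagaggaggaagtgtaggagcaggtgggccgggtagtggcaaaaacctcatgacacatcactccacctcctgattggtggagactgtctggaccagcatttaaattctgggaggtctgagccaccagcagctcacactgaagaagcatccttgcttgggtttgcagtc

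The Foxa1 window held 1 forkhead word, TGTTTAC on the opposite strand, from 141 to 135 bases before the start base, and no GATA word. The Gata3 window held 1 GATA word, TGATAG, from 36 to 41 bases after the start base. The printed Prox1 and Spp1 windows held none of the words. The start bases of the printed Gata3 and Spp1 windows are the very ends of the loci in the table, that of Foxa1 lies 10 bases inside, and that of Prox1 lies 147 bases outside. A second Prox1 window, with its start base 1165 bases inside the locus, held 2 forkhead words, and a second Spp1 window, 1081 bases inside, held 2 GATA words and no forkhead word. Of 32817 promoter windows of the mouse genome, 29.8% held a GATA word, 13.5% a forkhead word and 8.4% an Onecut word. The words were counted on both strands, and no occurrence in the member windows overlapped another. The printed windows differed in base composition. G and C made up 67.3% of the Gata3 window, 64.3% of the Prox1 window and 62.3% of the Foxa1 window, but 45.3% of the Spp1 window, against a median of 52.7% over all windows. These matches are letters in a window and carry no information on binding.

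Of the 5 genes, 3 were higher in the mutant library (Foxa1, Onecut2 and Gata3) and 2 were lower (Prox1 and Spp1). The rule for a call asked that log2((mutant FPKM + 1)/(control FPKM + 1)) be at least 1 in size, a 2-fold change, and that the level reach 1 FPKM in at least 1 library. FPKM is a fragment number scaled by transcript length and by the mapped fragments of the library. When each library had to reach 1 FPKM, Onecut2 alone of the higher members was called, and at 4-fold or at a q of 0.01 or less in the authors' deposited table Spp1 alone of the lower ones. By the 2-fold rule 48.4% of the table's genes were higher and 45.2% lower (121 and 113 genes), so a call sets no member apart. After centring the ratios on the table median the split was 38 higher and 114 lower. The median used for centring, here and below, was 1.11, taken over table genes at 1 FPKM or more in at least 1 library. The table holds only genes called changed, so this median is not a level of no change. Centring lowers every ratio by it, which makes the higher members smaller in size and the lower members larger by construction. The table itself holds 1.67% of the 14984 genes that its q-values imply were tested. There was 1 library per genotype, so replicate spread is unknown for every value and difference.

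**Figure D1:**
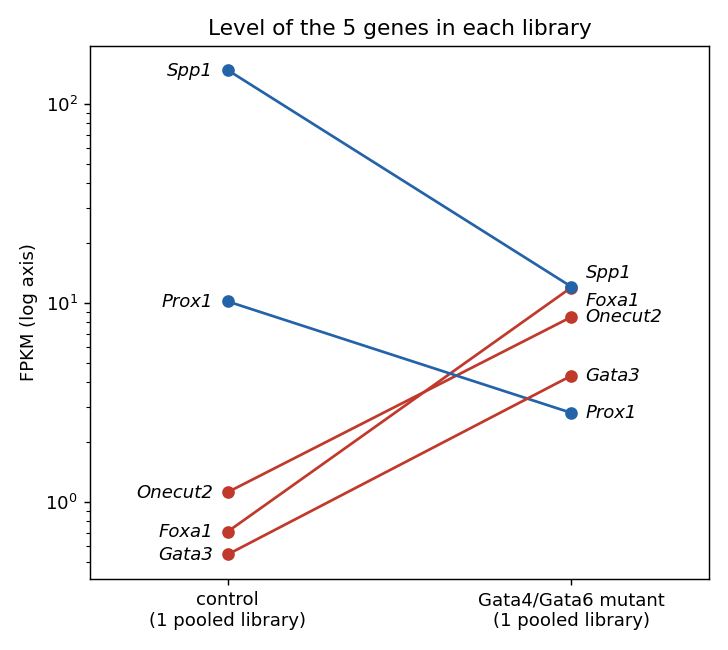
FPKM of the 5 genes (log axis) in the control and the mutant library, 1 pooled library each. Red lines join the values of genes higher in the mutant and blue lines those of lower genes. Spp1 at 12.1 and Foxa1 at 12.0 meet in the mutant, after 148 and 0.711 in the control.

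Foxa1 had the largest change among the 4 transcription factors on the log2(FPKM + 1) scale. After centring on the table median, which shrinks Foxa1 and enlarges Prox1 by construction, Prox1 had it (−2.67 against 1.81). The control library held 0.711 FPKM of Foxa1 and the mutant library 12.0 FPKM, a 16.8-fold higher level by plain ratio and 2.92 on the log2(FPKM + 1) scale. It was thus under 1 FPKM in the control, so it was not called when each library had to reach that level. The ratio was number 10 in size among the 121 higher genes. In the authors' deposited table the q of Foxa1 was 1.08e-07. The gene lies on mm9 chromosome 12 from 58641619 to 58647108 in the table, which differs by 1 base from its annotation (GENCODE vM1), where it has 1 coding transcript of 2 exons and overlaps no other gene.

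Onecut2 was 1.12 FPKM in the control library and 8.51 FPKM in the mutant, 7.58-fold higher and 2.16 on the log2(FPKM + 1) scale. Unlike Foxa1 and Gata3, it was above 1 FPKM in both libraries. It was number 34 in size among the higher genes, and its q in the authors' deposited table, 3.7e-08, was smaller than that of Foxa1 although its fold was less. The gene lies on chromosome 18 from 64500018 to 64558142 in the table and overlaps no other gene. Its annotated coding transcripts run from 1403 to 15906 bases. FPKM divides by transcript length, so its level next to the other genes depends on the transcript model, which the labels do not name, while the ratio between libraries depends on it less directly.

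Gata3 was 0.546 FPKM in the control library and 4.31 FPKM in the mutant, 7.90-fold higher and 1.78 on the log2(FPKM + 1) scale. It had the lowest control level of the 5 genes and stood at 4.31 FPKM against 12.0 for Foxa1 in the mutant. Its q in the authors' deposited table was 0.00259. It was not called when each library had to reach 1 FPKM, and did not reach the 2-fold rule with a pseudocount of 5 FPKM (0.75) or with ratios centred on the table median (0.67). The table's locus on chromosome 2, from 9778705 to 9800227, is 21.5 kb long, where the annotated gene spans 33.0 kb. A processed transcript, Gm13256, overlaps it on the other strand, and the labels do not say whether counting used the strand.

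Prox1 was the lower member among the transcription factors, at 10.2 FPKM in the control library and 2.81 FPKM in the mutant. This is 3.63-fold lower by plain ratio and −1.55 on the log2(FPKM + 1) scale, the smallest change in size of the 5 genes on this scale. Gata3 had a smaller one with a pseudocount of 5 FPKM (0.75 against −0.96), and Gata3, Onecut2 and Foxa1 did after centring. Prox1 was number 72 in size among the 113 lower genes. Its q in the authors' deposited table, 0.0152, was the highest of the 5. Its ratio of −0.96 with a pseudocount of 5 FPKM was short of the rule, and it was not called at 4-fold or at a q of 0.01 or less. The Prox1 locus, on chromosome 1 from 191945658 to 191994559, overlaps a long noncoding RNA gene on the other strand, Gm17566, at the end that holds the start site.

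Spp1 had the highest level of the 5 genes in each library and the largest change in size on the log2(FPKM + 1) scale. It was 148 FPKM in the control library and 12.1 FPKM in the mutant, 12.2-fold lower and −3.51 on the log2(FPKM + 1) scale. It was the gene with rank 5 of 250 by level in the control and rank 75 in the mutant. Its difference of 136 FPKM was the number 4 loss of the table. All 9 genes of the table at 100 FPKM or more in the control were lower in the mutant. Its q in the authors' deposited table was 1.33e-11, rank 6 of 250. The table's locus on chromosome 5, from 104864130 to 104870072, overlaps no other gene.

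The order of the levels changed between the libraries. In the control, FPKM ran from Spp1 through Prox1, Onecut2 and Foxa1 down to Gata3. In the mutant it ran from Spp1 through Foxa1, Onecut2 and Gata3 down to Prox1. Spp1 stood 208 times above Foxa1 in the control and 1.01 times in the mutant, a gap that 1 library cannot tell from equality. Prox1 stood 14.3 times above Foxa1 in the control, and Foxa1 4.26 times above Prox1 in the mutant. The 4 transcription factors summed to 12.6 FPKM in the control library and 27.6 FPKM in the mutant. Prox1 made up 81.1% of this sum in the control and 10.2% in the mutant. Foxa1 made up 5.66% and 43.4%, Onecut2 8.93% and 30.8%, and Gata3 4.34% and 15.6%. These shares compare levels per transcript length and have no error.

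**Figure D2:**
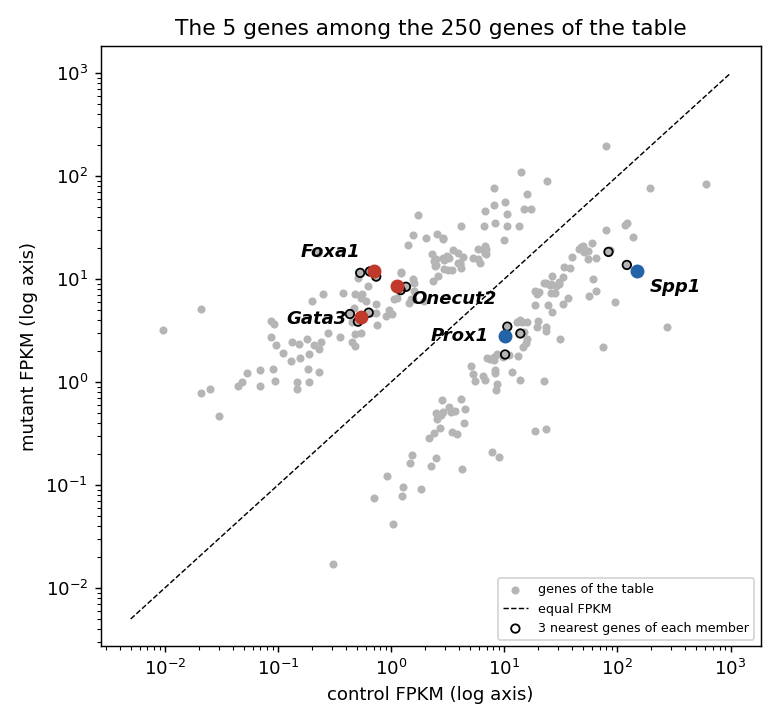
Control FPKM against mutant FPKM (both log axes) for the 250 genes of the table, with the 5 members in red (higher) or blue (lower), their 3 nearest genes circled and a dashed line of equal FPKM. The empty band along the line is there because the table holds only genes the authors called changed, and the 5 members lie within the spread of the other genes on their side.

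Among all genes of the table, 66 were under 1 FPKM in the control, Foxa1 and Gata3 among them. Of these, 24 reached 4 FPKM in the mutant, as both did, and 6 reached 10 FPKM, as Foxa1 did. At the other side, 15 genes were at 10 FPKM or more in the control and under 3 FPKM in the mutant, Prox1 among them. A low control value for Foxa1 and Gata3 was thus shared with 26.4% of the table.

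The genes nearest to each member were taken by the distance between their log2(FPKM + 1) levels in the 2 libraries. Nearest to Foxa1 were Grem1, an antagonist of Bmp signals (0.649 FPKM in the control library and 11.9 in the mutant), Myocd, a coactivator of smooth muscle genes (0.739 and 10.6), and the hedgehog ligand Ihh (0.533 and 11.5). Their distances ran from 0.055 to 0.168. Nearest to Onecut2 were Dbh, an enzyme of noradrenaline synthesis (1.15 and 8.17 FPKM), Sh3bgr (1.22 and 7.82) and Lix1 (1.35 and 8.43). Nearest to Gata3 were the muscle actin Acta1 (0.433 and 4.58), the bile acid receptor Gpbar1 (0.509 and 3.86) and the smooth muscle myosin Myh11 (0.635 and 4.72). None of these neighbours lay farther than 0.168 from its member. Prox1 had less close neighbours, Afap1l2 (10.7 and 3.46 FPKM), Vnn1 (13.9 and 2.97) and Slitrk5 (10.2 and 1.85), at distances from 0.233 to 0.418. Nearest to Spp1 was Serpina6, a corticosteroid carrier (150.4 and 11.9 FPKM), at a distance of 0.035. Next came the peptide hormone gene Pyy (121 and 13.7) at 0.333 and the ribosomal protein gene Rpl35 (83.5 and 18.4) at 0.997. With 2 libraries this is a likeness of 2 levels only.

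Of 39 annotated endoderm and epithelial transcription factors on a list drawn up for this comparison, 9 were in the table, 6 higher and 3 lower in the mutant library. Foxa1, Onecut2 and Prox1 are 3 of these 9. Over all 250 genes 48.4% were higher and 45.2% lower. The median ratio of the 9 was 2.10, beside 0.87 over all 250 genes. This median mixes both directions and includes the 3 members, which were chosen by these same values. The list was also chosen with earlier results of these data known, so the comparison is a description only. Foxa1 had the highest ratio of the 9. It was followed by Cdx2, the factor of intestinal identity (0.506 FPKM in the control library and 10.2 in the mutant, 2.90 on the log2(FPKM + 1) scale), and by the antral stomach factor Nkx6-3 (0.379 and 7.35, 2.60). Onecut2 came next, ahead of the forkhead factor Foxq1 (0.0918 and 3.69, 2.10) and the intestinal factor Isx (0.134 and 2.43, 1.60). The 3 lower factors were Prox1 and the endocrine factors Nkx2-2 (15.9 and 2.64, −2.22) and Neurog3 (9.06 and 0.186, −3.08). The 6 higher factors were all at 1.12 FPKM or less in the control, and the 3 lower ones at 9.06 FPKM or more. The relatives Foxa2, Foxa3, Onecut1, Onecut3, Prox2, Gata1, Gata2 and Gata5 were not among the 250 genes, and neither were Gata4 and Gata6, so the deletion could not be checked. Genes outside the table were not analysed here.

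**Figure D3:**
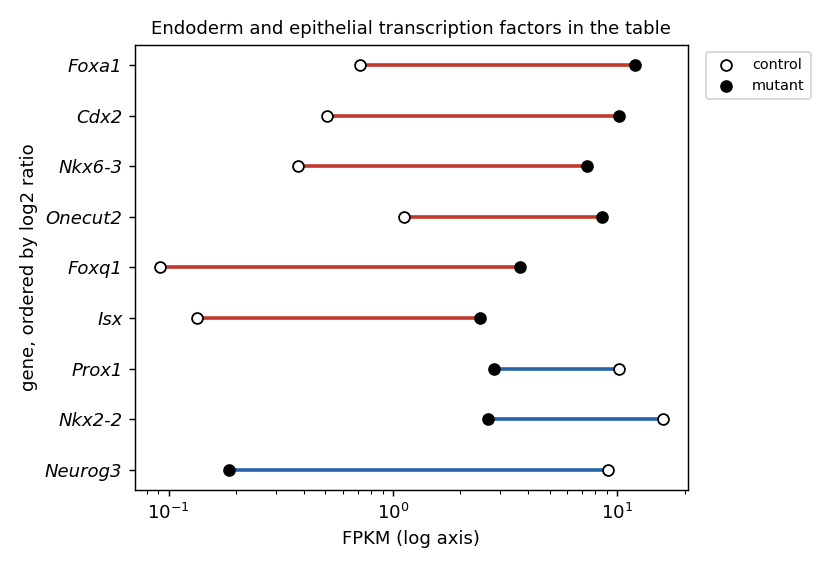
FPKM (log axis) of the 9 endoderm and epithelial transcription factors in the table, with open circles for the control and filled circles for the mutant, 1 library each, ordered by log2 ratio. Red lines mark genes higher in the mutant and blue lines lower genes; Foxa1 and Onecut2 lie with Cdx2 and Nkx6-3, and Prox1 with Nkx2-2 and Neurog3.

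The table held 2 of 21 annotated ductal genes, with opposite directions. Tspan8, a tetraspanin of the cell surface, was 2.94 FPKM in the control library and 15.2 FPKM in the mutant, 2.04 on the log2(FPKM + 1) scale, against −3.51 for Spp1. The level of Spp1 was 50.4 times that of Tspan8 in the control and 0.795 times in the mutant. The duct genes Sox9, Krt19 and Cftr were not among the 250 genes. None of 20 annotated pan-epithelial genes, Epcam and Cdh1 included, was in the table either. The table holds only 1.67% of the genes tested, so an absence does not show an unchanged level.

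The other genes around Spp1 were looked up because it belongs to a cluster of genes for acidic phosphoproteins of bone and teeth. Its relatives Dspp, Dmp1, Ibsp and Mepe, the 4 coding genes between Sparcl1 and Spp1 on chromosome 5, were not in the table. Sparcl1, a matrix protein gene 321 kb away and singled out after its values were seen, was 137 FPKM in the control library and 25.5 FPKM in the mutant, 5.36-fold lower by plain ratio. It was the only gene of the table within 1 Mb of any of the 5 genes. Of 10 annotated integrin and Cd44 genes that encode receptors of osteopontin, 1 was in the table. This was Itga8, the integrin alpha 8 subunit of mesenchymal cells, at 25.6 FPKM in the control library and 8.75 FPKM in the mutant, −1.45 on the log2(FPKM + 1) scale. None of 6 annotated partners of Gata factors, such as Zfpm1 and Zfpm2, was in the table, which holds 1.67% of the genes tested.

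Markers of other cells that can make these 5 genes were also looked up. Those in the table differ between the libraries by construction, since it holds only genes called changed. Over all table genes 48.4% were higher and 45.2% lower, beside the counts given here and in the next paragraph. Of 11 annotated macrophage and neutrophil markers, 4 were in the table and all 4 were lower. They summed to 168 FPKM in the control library and 29.2 FPKM in the mutant. The largest were the neutrophil genes S100a8 (65.1 and 7.74 FPKM) and S100a9 (61.4 and 10.1), ahead of Lyz2 (28.1 and 7.35) and Mrc1 (13.7 and 3.98). The macrophage markers Csf1r, Cd68, C1qa, C1qb and Cx3cr1 were not in the table. Of 10 liver markers, 3 were in the table, Alb, Apoe and Trf, all lower, with 296 and 113 FPKM. Apoe alone gave 194 and 76.7 FPKM of these sums. Afp, Ttr, Apoa1, Apoa2, Apob, Fgb and Serpina1a were not in the table. Of 12 markers of sympathetic and enteric neurons, which can express Gata3, Prox1 and Onecut2, 6 were in the table and all 6 were higher, with 17.3 and 88.9 FPKM. Of 7 nephric markers, 3 were in the table and higher (Six2, Ret and Gdnf), with 7.34 and 47.6 FPKM, while Pax2 and Pax8 were not in it. Ret is also among the 6 neuron markers and enters both sums, so the 2 lists are not separate. None of 9 markers of lymphatic and blood endothelium and none of 6 of T cells and innate lymphoid cells was in the table. With 1.67% of the tested genes in the table, these absences do not show that such cells were unchanged or missing. The part of these cells in the levels of Spp1, Prox1, Gata3 and Onecut2 was not tested.

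Markers of the epithelial fates were looked up as well, because they bear on the labelled tissue. Those in the table differ by construction, since it holds only genes called changed. Of 12 acinar markers, 8 were in the table and all were lower, with summed levels of 524 FPKM in the control library and 19.0 FPKM in the mutant. Of 15 endocrine markers, 5 were in the table and all were lower, with 778 and 104 FPKM. Of 17 intestine and stomach markers, 7 were in the table, 6 higher and 1, Fcgbp, under 1 FPKM in both libraries, with 2.82 and 37.8 FPKM in sum. Cdx2, Nkx6-3, Foxq1 and Isx of this list are also among the endoderm and epithelial transcription factors above. So are Neurog3 and Nkx2-2 of the endocrine list, and these counts are therefore not separate results. No marker in the table was listed at 0 in either library. The acinar and endocrine markers in the table thus summed to high levels in the control library, while listed markers outside it have no values here. Pdx1 and Ptf1a were not among the 250 genes. The part of these cells in the levels of Foxa1 and the other members was not tested.

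**Figure D4:**
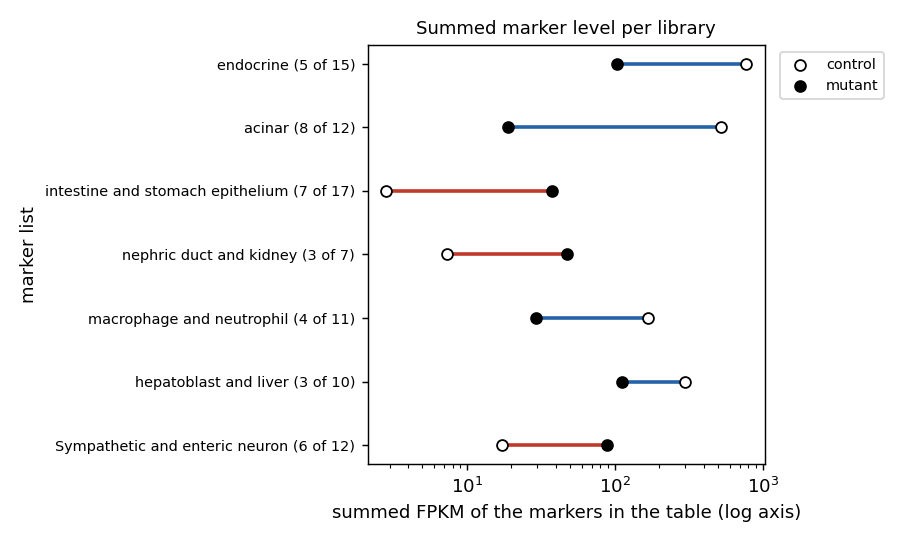
Summed FPKM (log axis) of the markers in the table for each list, with open circles for the control and filled circles for the mutant, 1 library each, and the number of annotated markers in the table beside each name. Red lines mark sums higher in the mutant, such as 17.3 and 88.9 FPKM for neurons, and blue lines lower sums, such as 168 and 29.2 FPKM for macrophages and neutrophils.

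The ratios of the members with low control levels depended most on the pseudocount. Foxa1 ran from 1.57 with a pseudocount of 5 FPKM to 4.07 in the log2 fold change of the authors' deposited table, which has no pseudocount. Spp1, far from the floor in each library, ran from −3.16 to −3.61 between the same settings. Without a pseudocount Foxa1 therefore had a larger change in size than Spp1, and with 1 FPKM added a smaller one. No setting changed the direction of any of the 5 genes, which a pseudocount cannot do by construction.

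**Figure D5:**
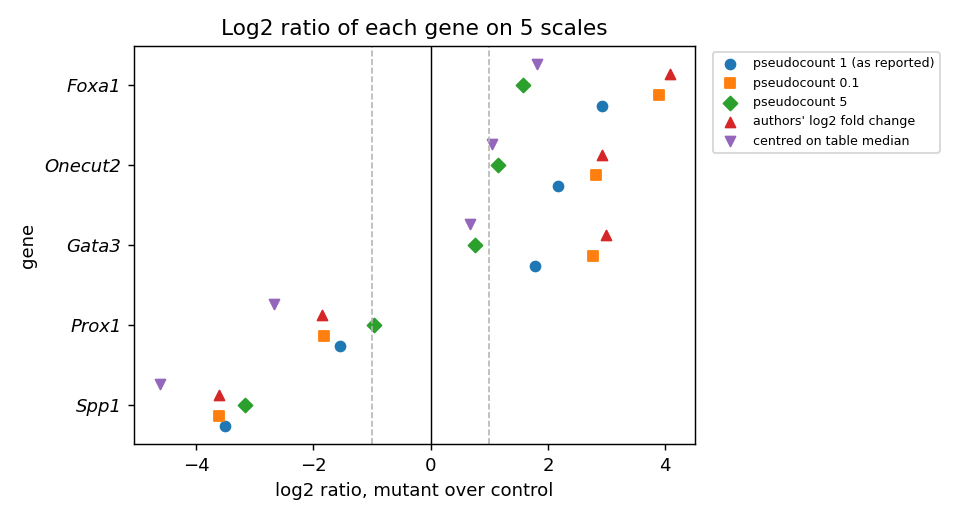
Log2 ratio of mutant over control for each of the 5 genes (rows) on 5 scales, with dashed lines at −1 and 1, the limits of the 2-fold rule. Gata3 lies inside the limits at 0.75 and 0.67 and Prox1 at −0.96, while Foxa1, Onecut2 and Spp1 lie outside them on all 5 scales.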

How the data were processed

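RNA of whole dissected pancreas (integrity number above 8) was made into TruSeq libraries, and over 20000000 reads were mapped to mm9 with Tophat 2.0.4, with 4 mismatches and up to 10 hits, per the labels' protocols. CASAVA 1.8.2, Cufflinks and DESeq are listed in the submitters' processing notes. The labels give neither depth per library nor the transcript annotation, so no counting interval was computed. The authors deposited 250 genes, each with an FPKM value per library. The log2 fold change the authors deposited equalled the log2 ratio of the FPKM values within 0.001 in 250 of 250 rows. The authors deposited a test statistic, a score opposite in sign to the fold change. The p-value the authors deposited was within 2% of a 2-sided normal tail of that score in all 244 rows with p above 1e-14. Per the labels DESeq made the calls, while the column names are those of Cuffdiff, so the program is not settled. The number of tested genes is the median of q times rank over p, for p above 1e-04.

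Ratios were computed with a pseudocount of 1 FPKM, which understates changes of low genes, and no test was run. The calculations were tested on simulated data. The 5 members, the lists and the naming rule (members, the 3 nearest named genes of each, up to 4 list genes in the table by size) were chosen with earlier results of these data known; further list genes are named where they complete a list. Positions are 1-based on mm9, compared with GENCODE vM1 (NCBIM37). Alternatives were pseudocounts of 0.1 and 5 FPKM, the authors' log2 fold change, centring on the table median, no minimum, minimums of 5 FPKM or of 1 FPKM in both libraries, a 4-fold threshold and a q of at most 0.01. Python 3.11.15, pandas 2.3.3, numpy 2.4.6 and matplotlib 3.10.9 were used.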

Additional observations from a re-analysis of the deposited data

How the results depend on the processing

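The direction of the 5 genes was the same on all scales run. On the log2 scale, Foxa1 (2.92 as reported) was 3.90 with a pseudocount of 0.1 FPKM, 1.57 with 5 FPKM, 4.07 in the authors' deposited log2 fold change and 1.81 after centring on the table median. In the same order, Onecut2 (2.16) was 2.82, 1.14, 2.92 and 1.05, Gata3 (1.78) was 2.77, 0.75, 2.98 and 0.67, Prox1 (−1.55) was −1.82, −0.96, −1.86 and −2.67, and Spp1 (−3.51) was −3.60, −3.16, −3.61 and −4.62. The shift in centring was 1.11, the median ratio of the table genes at 1 FPKM or more in at least 1 library. These genes were deposited because they differed, so their median is not a level of no change. Of the 3 higher members, 1 (Onecut2) was called when each library had to reach 1 FPKM, as were 70 of the 121 higher table genes. Gata3 was also not called at 4-fold, after centring, or with 5 FPKM as the pseudocount or as the minimum. Of the 2 lower members, 1 (Spp1) was called with a pseudocount of 5 FPKM, at 4-fold and at a q of at most 0.01. Over the table, the higher and lower genes were 69 and 75 with a pseudocount of 5 FPKM and 50 and 37 at 4-fold. Centring left 38 higher genes against 114 lower. At a q of 0.01 or less, 87 higher and 66 lower genes were called. When each library had to reach 1 FPKM, the lower genes numbered 83. Among 37 further list genes, Fcgbp alone changed sign, to −0.42 with centring. A pseudocount of 5 FPKM makes every ratio smaller in size and one of 0.1 FPKM makes it larger, by construction. No paired analysis was possible because there is 1 library per genotype, and no replicate could be left out. Depth per library is unknown, which limits Foxa1 and Gata3, under 1 FPKM in the control, most.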
